A study of Mus musculus with 8 samples.

Results

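The miR-34 family is a group of small RNAs that share a seed, the bases of a microRNA (miRNA) that pair with target messages. All array spots named miR-34a, miR-34b or miR-34c, in either arm, were taken: 5 miRNA names of the 650 on the array, read by 10 of 1857 probes and 100 of 13000 spots per array. The arrays were hybridised with total RNA from cultured microvascular smooth muscle (mVSM) cells of male C57BL6 mice that are Rap1a -/-. Rap1a is a small GTPase of the Ras family, and both groups lack it. A virus brought an empty Shuttle vector into 4 cultures (vector) and a RapCA Shuttle vector into the other 4 (RapCA). What RapCA encodes beyond its name, the promoter that drives it and the age of the mice are not given in the sources used here, and the labels do not say whether the cultures came from separate animals. Cells grew in 10% serum, were exposed to virus overnight without serum, and had 48 h in 0.5% serum before RNA was taken. The series title names a comparison of knockout with rescue, so the question for the miR-34 family is whether its levels differed between these groups.

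The miR-34 genes are known as direct transcriptional targets of p53, the factor that responds to DNA damage and other stress; p53 itself was not measured here. miR-34a comes from a gene of its own, and miR-34b and miR-34c are cut from 1 shared primary transcript. Loaded into Argonaute, they lower messages of cell cycle and survival genes such as Ccnd1, Cdk6, Met and Bcl2, and miR-34a in vascular smooth muscle is known for its link to senescence. miR-449a, miR-449b and miR-449c, which belong to the same seed family, are abundant in ciliated epithelium.

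The mature sequences below are shown because the seed defines the family and because the arms of the hairpins behaved differently on the arrays. They are from RefSeq (GRCm38.p6), 5′ to 3′, with bases 2 to 8, the seed, in capitals. Of the 5 miR-34 names 4 were matched there; miR-34c, a 5′ arm of the same seed family, was not.
miR-34a: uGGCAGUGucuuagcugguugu
miR-34b-5p: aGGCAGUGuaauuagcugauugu
miR-449a: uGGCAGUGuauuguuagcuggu
miR-449c: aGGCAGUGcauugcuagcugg
miR-34b-3p: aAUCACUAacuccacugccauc
miR-34c*: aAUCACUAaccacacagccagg
The seed GGCAGUG stood in 4 of the 1679 mature mouse names of the table, each printed here, and AUCACUA stood in 2, the opposite arms of miR-34b and miR-34c. Counted from the 5′ end without gaps, miR-34a and miR-34b-5p had the same base at 11 of 22 positions, and miR-34a and miR-449a at 15 of 22. miR-34b-5p is 23 bases long and miR-34a 22, so their later bases may be out of step. These counts therefore do not rank how alike the members are. miR-34b-3p and miR-34c*, the arm called miR-34c-3p in RefSeq, matched at 17 of 22 positions.

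The miR-34a hairpin lies at chr4:150068454-150068555 on the plus strand. The miR-34b hairpin, at chr9:51103562-51103645 on the minus strand, is printed here with both mature arms in capitals, since 1 arm was detected and the other was not.
Mir34b: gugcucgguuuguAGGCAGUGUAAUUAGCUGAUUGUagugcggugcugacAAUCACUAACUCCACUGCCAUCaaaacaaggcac
The miR-34c hairpin, at chr9:51103034-51103110 on the same strand, is 451 bases away. Both hairpins fall within the annotated spans of the protein-coding genes Btg4 and Hoatz. The array design names an older build, so these coordinates are those of RefSeq and not of the array files.

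The 5′ arms of miR-34a, miR-34b and miR-34c were present in every culture. With the scaling described in this paragraph, none of the 3 differed between RapCA and vector beyond the spread between cultures. Under some other scalings, given further on, members were called. By limma, 0 of 3 were called at an adjusted p of 0.05 (0 at an unadjusted p of 0.05), where 76.2% of the 168 tested miRNAs were called (79.2% unadjusted). In 0 of 3 were the groups separate, against 67.9% of tested miRNAs. The values were signal intensities on the log2 scale, with 4 arrays in each group, after each array was brought to a common 75th percentile over those probes that every array detected. A scaled level is relative to the other miRNAs on the array, and fewer cells that express a miRNA cannot be told apart from less of it per cell.

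miR-34a (mmu-miR-34a on the array), the member with its own gene, had scaled log2 levels of 8.27, 8.61, 8.86 and 8.78 on vector arrays 1 to 4. On RapCA arrays 1 to 4 the levels were 8.34, 8.40, 8.41 and 8.43. The RapCA arrays lay close together, within a 1.06-fold range, and fell inside the vector range, which spanned 1.51-fold, because vector 1 was lower than every RapCA array. The means were 8.63 ± 0.26 and 8.40 ± 0.04 (SD, n = 4 each). The log2 difference was -0.23 ± 0.13 (SE, limma adjusted p = 0.118), with a 95% interval from -0.52 to 0.05, and an exact permutation test gave p = 0.143. Without vector replicate 1 the difference was -0.34 and was called (limma adjusted p = 0.00643), where 85 of 169 tested miRNAs were lowered. Without RapCA replicate 2 the difference was -0.03. Each such fit chose its scaling probes anew.

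miR-34b-5p (mmu-miR-34b-5p), cut from the shared transcript of chromosome 9, had scaled log2 levels of 5.20, 6.27, 6.40 and 5.82 on vector arrays 1 to 4. On RapCA arrays 1 to 4 they were 6.55, 5.97, 6.15 and 6.26. Vector 1 was the lowest and RapCA 1 the highest, and the groups overlapped. The means were 5.92 ± 0.54 and 6.23 ± 0.24 (SD, n = 4 each). RapCA minus vector was 0.31 ± 0.25 in log2 (SE, limma adjusted p = 0.272). The 95% interval ran from -0.25 to 0.86, and the exact permutation p was 0.371. The difference was 0.08 without vector replicate 1, 0.20 without RapCA replicate 1 and 0.60 without RapCA replicate 2 (limma adjusted p = 0.0521).

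miR-34c (mmu-miR-34c), the neighbour of miR-34b, had scaled log2 levels of 5.77, 6.02, 6.10 and 5.97 on vector arrays 1 to 4. On RapCA arrays 1 to 4 they were 5.94, 5.64, 5.81 and 5.73. The RapCA arrays were mostly lower, but RapCA 1 lay within the vector range and vector 1 within the RapCA range. The means were 5.96 ± 0.14 and 5.78 ± 0.13 (SD, n = 4 each). The log2 difference was -0.19 ± 0.10 (SE, limma adjusted p = 0.130, 95% interval -0.42 to 0.05), with an exact permutation p of 0.114. The direction turned without RapCA replicate 2 (0.07).

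**Figure D1:**
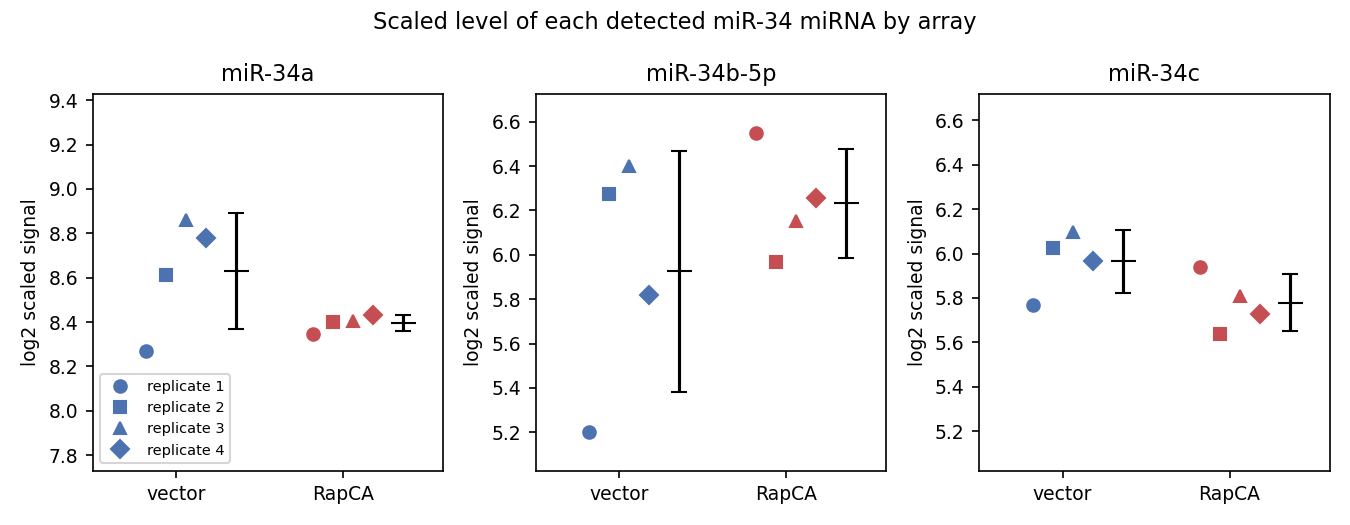
Log2 scaled signal (vertical axis) of miR-34a, miR-34b-5p and miR-34c on each vector and RapCA array; each marker shape is 1 replicate number, and the bar gives the mean with its SD over 4 arrays. All panels span the same height; the groups overlap in each, the RapCA arrays of miR-34a lie between 8.34 and 8.43, and the vector arrays of miR-34b-5p spread from 5.20 to 6.40.

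Relative to the miRNAs around them, all 3 estimates lay above the median difference of the 168 tested miRNAs, which was -0.30, although miR-34a and miR-34c lay below the median under some other scalings given further on. miR-34b-5p lay 0.61 above that median, miR-34c 0.12 above it and miR-34a 0.07 above it. With only probes detected on all 8 arrays, the median of 115 miRNAs was -0.24. There miR-34b-5p lay 0.54 above the median, miR-34c (its brighter probe only) 0.16 and miR-34a 0.004. The size of the spread differed among the members. The pooled SD within groups was 0.42 for miR-34b-5p, the 6th largest of the 115 miRNAs with a probe detected on all 8 arrays. It was 0.19 for miR-34a (rank 57) and 0.14 for miR-34c (rank 80), against a median of 0.19. Within a probe and array, the replicate spots of the detected family probes had a median SD of 0.11 on the log2 scale (0.0251 to 0.267), which covers the scatter of spots and not that between cultures.

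The opposite arms were not detected. miR-34b-3p and miR-34c* had 0 of 149 and 0 of 154 kept spots well above background over the 8 arrays. Their mean processed signals per probe and array ran from -1.25 to 4.90 and from -2.24 to 6.91. Negative control spots had a 95th percentile of 5.81 to 8.06 and medians of 2.24 to 3.11, over single spots and not means of spots. Unscaled, 1 miR-34c* probe had means of 5.55 to 6.91 on vector arrays and 0.29 to 3.90 on RapCA arrays. The other miR-34c* probe had -0.91 to 1.25 and -2.24 to 0.54. The scanner software's total gene signal is listed at 0.1 for both on all 8 arrays, the value it gives an undetected miRNA. Neither arm was tested for a difference, and low or absent RNA and a weak probe cannot be told apart here. The printed miR-34b hairpin thus had a 5′ arm detected on 8 arrays and a 3′ arm detected on none.

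Before scaling, the arrays of the groups differed in total signal. The summed signal of all miRNAs averaged 69834 ± 9956 on vector arrays and 35150 ± 14362 on RapCA arrays (SD, n = 4 each). RapCA over vector was 0.503, and the exact permutation p of 0.0286 is the lowest that 4 against 4 arrays allow. RapCA 1 had 56618 and the other RapCA arrays 26374 to 29218, while no vector array was under 59506. All 8 arrays were on 1 slide and in 1 scan, but the vector arrays filled 1 row of the slide and the RapCA arrays the other, so slide row and group cannot be told apart. The RNA amounts put on each array are not given in the sources used here.

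The family's unscaled signals went the same way. Unscaled miR-34a signal was 648, 891, 1171 and 760 on vector arrays 1 to 4, and 683, 278, 304 and 307 on RapCA arrays 1 to 4. Unscaled miR-34b-5p was 74.4, 165, 198 and 90.4 on vector arrays, and 180, 46.2, 57.6 and 60.9 on RapCA arrays. Unscaled miR-34c was 129, 170, 198 and 123, and then 143, 48.6, 57.7 and 53.9. For each of the 3, RapCA 1 lay inside the vector range and RapCA 2, 3 and 4 lay below every vector array. The ratios of group means were 0.453 for miR-34a, 0.653 for miR-34b-5p and 0.489 for miR-34c, beside 0.503 for all miRNAs together.

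As a share of the array's total signal, miR-34a took 1.01% to 1.43% on vector arrays and 1.04% to 1.21% on RapCA arrays. miR-34b-5p took 0.116% to 0.241% and 0.175% to 0.318%, and miR-34c 0.201% to 0.241% and 0.184% to 0.253%. The groups overlapped in all 3 shares. These shares compare a miRNA with itself across arrays only, since probes differ in brightness.

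**Figure D2:**
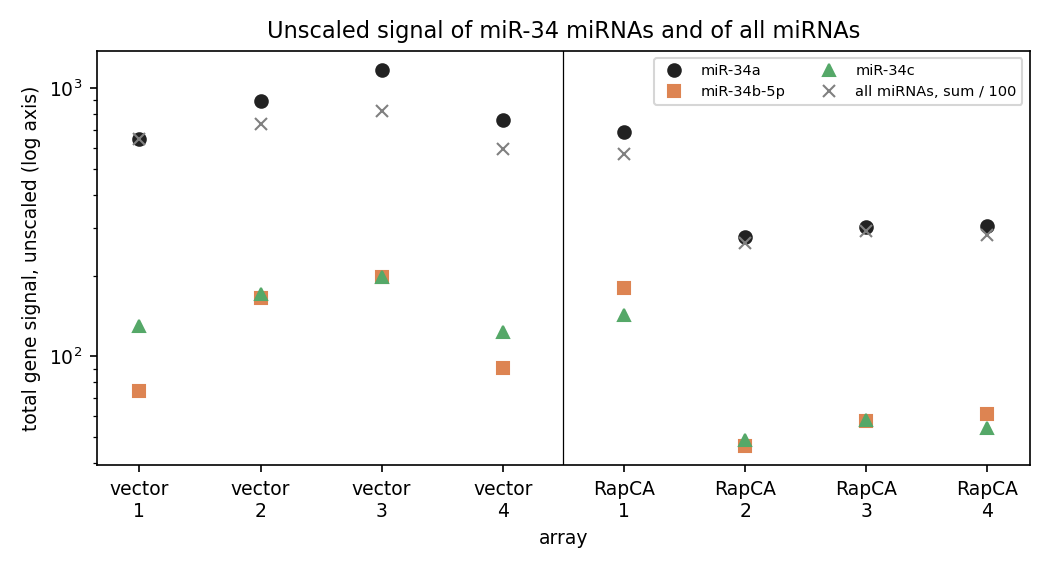
Unscaled total gene signal (vertical log axis) of miR-34a, miR-34b-5p and miR-34c, and the sum over all miRNAs divided by 100, on each of the 8 arrays (horizontal axis). For each miR-34 miRNA RapCA 1 lies within the vector range and RapCA 2, 3 and 4 lie below it, while the sum over all miRNAs is below every vector array on all RapCA arrays, narrowly on RapCA 1; heights of different miRNAs are not comparable.

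The direction turned with some choices of scaling. With no scaling, the log2 differences were -1.30 for miR-34a, -0.76 for miR-34b-5p and -1.22 for miR-34c, where the median of all tested miRNAs was -1.03. With the 4 spike-in controls as the scale they were -1.29, -0.75 and -1.21, and the median was -1.06. In both, miR-34a and miR-34c passed the limma test and miR-34b-5p did not. Of all 168 tested miRNAs, 113 were lowered with no scaling and 111 with spike-ins. With cyclic loess on detected probes, where the median was -0.05, the values were 0.08, 0.59 and 0.05. There miR-34b-5p was called (limma adjusted p = 0.0467), and 62 of the 168 were raised. Relative to the median of all tested miRNAs, miR-34b-5p stayed above by 0.10 to 1.31 in the alternatives that gave both values. miR-34a lay from -0.59 to 0.33 around that median and miR-34c from -0.19 to 0.41.

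**Figure D3:**
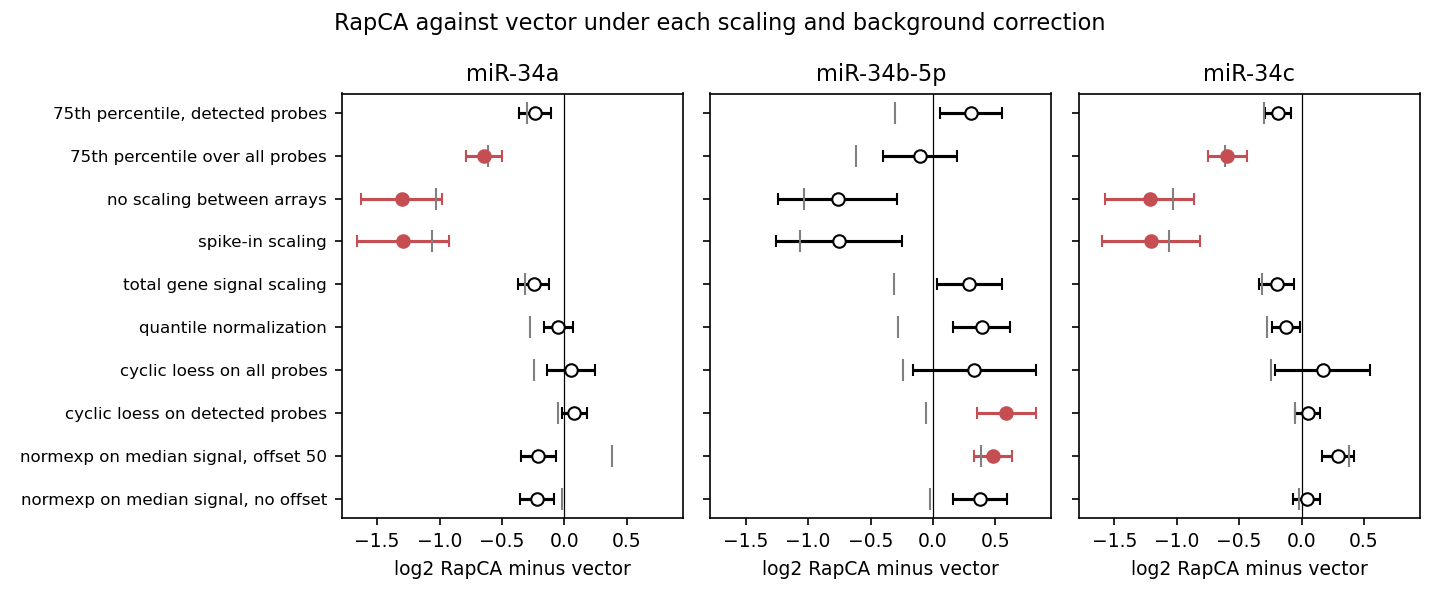
Log2 RapCA minus vector (horizontal axis) for each detected miR-34 miRNA under each scaling or background correction (vertical axis); bars are SE, filled red points have a limma adjusted p under 0.05, and grey ticks mark the median of all tested miRNAs. miR-34a ranges from -1.30 to 0.08 and miR-34b-5p from -0.76 to 0.59, while the miR-34b-5p points lie to the right of the grey ticks.

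Ratios within an array do not depend on that scale, so the 3 pairs of members were compared that way. The members have related sequences, and signal shared between their probes was not tested. The log2 ratio of miR-34b-5p over miR-34c, 2 miRNAs of 1 transcript, was -0.56, 0.25, 0.30 and -0.15 on vector arrays 1 to 4. On RapCA arrays 1 to 4 it was 0.61, 0.33, 0.34 and 0.53. Every RapCA array was above every vector array, narrowly so for vector 2 and 3 against RapCA 2 and 3. The difference was 0.49 ± 0.21 (SE), with an exact permutation p of 0.0286, the smallest possible, and 0.0857 after Benjamini-Hochberg adjustment over the 3 pairs, so it failed the correction. Leaving out 1 array at a time gave 0.32 (without vector replicate 1) to 0.61. The adjusted exact p was 0.0429 without vector replicate 2, 0.0857 without any other vector array, and 0.171 to 0.214 without any RapCA array. With normexp background correction on the median signal the difference was 0.19 (offset 50, exact permutation p = 0.286) and 0.34 (no offset, exact permutation p = 0.2).

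The log2 ratio of miR-34a over miR-34b-5p was 3.06, 2.34, 2.46 and 2.96 on vector arrays and 1.79, 2.44, 2.26 and 2.18 on RapCA arrays. RapCA 2 lay inside the vector range, and the other RapCA arrays lay below it. The difference was -0.54 ± 0.22 (SE), with an exact permutation p of 0.0571 and 0.0857 after adjustment. Without vector replicate 2 it was -0.66 with an adjusted exact p of 0.0429, and without any other single array it was -0.63 to -0.42 with adjusted exact p from 0.129 to 0.214. With normexp it was -0.69 (offset 50) and -0.60 (no offset), each with an adjusted exact p of 0.0429. The ratio of miR-34a over miR-34c differed by -0.05 ± 0.11 (SE), with an exact permutation p of 0.686, and the groups overlapped. With normexp that ratio differed by -0.50 (offset 50) and -0.26 (no offset), each with an adjusted exact p of 0.0429. These ratios join probes of different brightness, so their absolute height carries no meaning and only the change between groups is read.

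**Figure D4:**
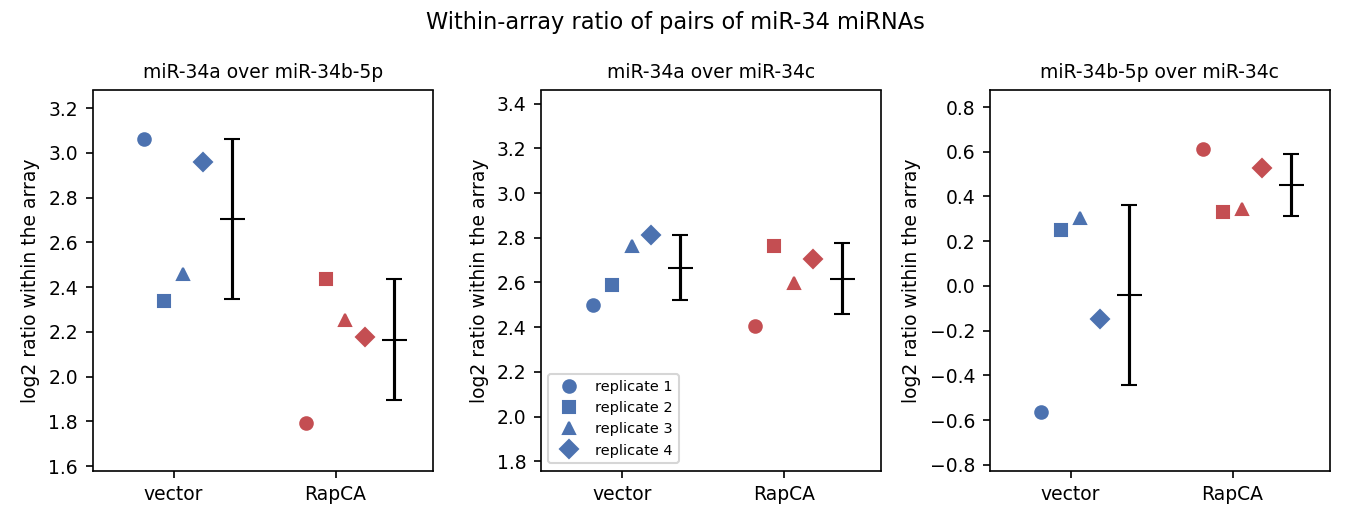
Log2 ratio within the array (vertical axis) for each pair of detected miR-34 miRNAs, by group; each marker shape is 1 replicate number and the bar is the mean with SD over 4 arrays. In the miR-34b-5p over miR-34c panel the RapCA arrays (0.33 to 0.61) lie above the vector arrays (-0.56 to 0.30).

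The probes of a member did not give the same answer. Each detected miRNA was read by a brighter and a dimmer probe, and 47 of 48 probe and array combinations were detected. The exception was the dimmer miR-34c probe on RapCA 2. In a fit of 292 single probes, the dimmer probe of miR-34a differed by -0.36 ± 0.12 (SE, limma adjusted p = 0.0192), with 7.59 to 8.14 on vector and 7.52 to 7.57 on RapCA arrays. Its brighter probe differed by -0.10 ± 0.14 (SE, limma adjusted p = 0.501), with overlapping groups. For miR-34c the dimmer probe differed by -0.29 ± 0.12 (SE, limma adjusted p = 0.0480) and the brighter by -0.08 ± 0.10 (SE, limma adjusted p = 0.507). The miR-34b-5p probes differed by 0.28 and 0.33, and neither was called. The share of the 292 probes that were called is not given here. In the separate fit of 168 miRNAs 76.2% were called and 67.9% had separate groups. Whether calls were more or less frequent among the family probes than among all probes was not tested.

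The log2 ratio of the brighter to the dimmer miR-34a probe was 1.36 to 1.47 on vector arrays and 1.56 to 1.75 on RapCA arrays. The groups did not overlap, with a difference of 0.26 and an exact permutation p of 0.0286, or 0.0857 adjusted over the 3 members. For miR-34c the same ratio differed by 0.22 (exact permutation p = 0.114) and for miR-34b-5p by 0.05 (exact permutation p = 0.314). The dimmer miR-34a and miR-34c probes were those called alone, and RapCA 2, 3 and 4, the arrays with the lowest total signal, had the largest ratios for both miRNAs. The part of total signal in this was not tested.

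The miRNAs whose profile over the 8 arrays was closest to each member were found from the root mean square (RMS) difference of centred log2 values, among 114 others. For miR-34a they were miR-500 (RMS 0.106), let-7i (0.119) and let-7g (0.130), against a median of 0.402. For miR-34c they were miR-500 (0.0904), miR-30b (0.112) and let-7g (0.115), against a median of 0.391. For miR-34b-5p they were miR-29c (0.150), miR-362-3p (0.207) and miR-106b (0.211), against a median of 0.608. miR-34c was the 4th closest to miR-34a (0.134), while miR-34b-5p ranked 55th for miR-34a (0.386). From miR-34b-5p, its transcript neighbour miR-34c ranked 12th (0.359). These ranks are counted from different members, with medians of 0.402 and 0.608, and cannot be compared. By distance, miR-34b-5p was nearly as far from miR-34c as from miR-34a. All profiles share the same 8 arrays and their scale factors, so these distances are descriptions.

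Other miRNAs of the pathway were read from lists, and the family's own seed group came first. Of 6 seed family names on the array 3 were detected, the miR-34 members, and miR-449a, miR-449b and miR-449c were detected on 0 arrays. Of 18 miRNAs in a list drawn up as linked to p53 through transcription or processing, 17 were on the array and 11 were tested. The link of each listed miRNA to p53 was not tested here. By limma 1 was raised and 5 were lowered, with 26.2% of all tested miRNAs raised and 50% lowered. Of these, miR-145 was detected on 0 of 4 RapCA arrays and its value there lies at or near the floor, so 4 of the 5 were measured in both groups. The 5 not called were the 3 miR-34 members, miR-16 (log2 difference 0.06 ± 0.08, SE) and miR-22 (-0.13 ± 0.09). The list median was -0.23, beside -0.30 over all tested miRNAs, and it was -0.19 with miR-145 at the bound set by the dimmest detected probes. With no scaling 0 of the 11 were raised and 9 lowered, where 10 and 113 of all 168 were. With cyclic loess on detected probes 3 were raised and 4 lowered, where 62 and 62 of the 168 were.

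The raised member was miR-15a, which targets Bcl2, with a log2 difference of 0.55 ± 0.16 (SE, limma adjusted p = 0.0115); it was -0.52 with no scaling, -0.51 with spike-in scaling and not called in either. The lowered members included miR-103 (-1.42 ± 0.09) and miR-107 (-0.93 ± 0.08), close relatives whose probes could share signal, and miR-23a (-0.38 ± 0.09), which was 0.13 and not called with cyclic loess on all probes. miR-143 and miR-145, which are also on the smooth muscle marker list, were the other lowered members. miR-143 had unscaled signals of 166 to 304 on vector and 26.9 to 98.4 on RapCA arrays, and a scaled log2 difference of -1.62 ± 0.15 (SE). miR-145 had unscaled signals of 20.2 to 27.3 on vector arrays and was not well above background on 4 of 4 RapCA arrays, so it has no fold here. Its vector mean was 4.02 in log2, and the dimmest detected probes of the RapCA arrays averaged 4.07, so a lower level is not bounded by these data; with normexp at offset 50 its fitted difference was 0.44.

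Of 6 miRNAs of the cluster that starts with miR-17, which p53 is known to repress, 5 were tested and 5 were raised, beside 26.2% of all tested miRNAs, with a list median of 1.49. They were miR-18a (log2 difference 0.92 ± 0.16, SE), miR-19a (1.96 ± 0.28), miR-19b (1.25 ± 0.16), miR-20a (1.49 ± 0.12) and miR-92a (1.78 ± 0.14). miR-17 was detected on 0 arrays. With no scaling or spike-in scaling 1 of the 5 was raised (10 and 9 of all 168 were), and miR-18a was -0.15 and -0.14. The cluster is 1 transcript, so its members are not independent, and miRNAs of related sequence may share signal.

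**Figure D5:**
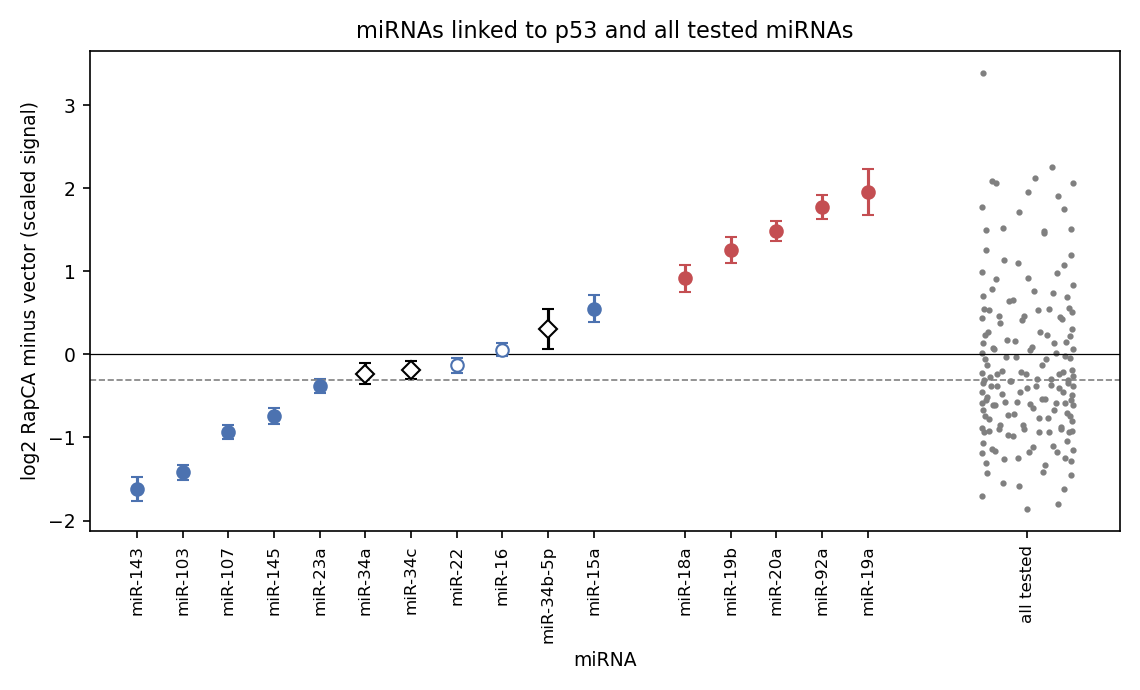
Log2 RapCA minus vector (vertical axis, scaled signal) with SE for the tested miRNAs of the p53-linked list (blue, miR-34 members as open black diamonds) and the p53-repressed list (red), beside all 168 tested miRNAs (grey dots); filled symbols have a limma adjusted p under 0.05, and the dashed line is the median of all tested, -0.30. The miR-34 members lie near 0, from -0.23 to 0.31, while the p53-repressed miRNAs lie from 0.92 to 1.96; the miR-145 point is a fitted value against the floor.

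The labelled cell type was compared with marker miRNAs. Of 4 smooth muscle markers listed, 3 were on the array. miR-143 and miR-145 were detected on all 4 vector arrays, miR-143 also on the RapCA arrays, and miR-145* was detected on 0 arrays. miR-143 was lowered by limma, and the call for miR-145 rests on the floor. All 4 tested mesenchymal markers (miR-199a-3p, miR-199a-5p, miR-199b* and miR-214) were detected and lowered too, beside 50% of all tested miRNAs, with a summed unscaled signal of 5815 to 8775 on vector and 1212 to 3097 on RapCA arrays. With cyclic loess on all probes, where 5 of 168 miRNAs were called, 0 of these markers was called and miR-199a-3p was at 0.0006. The epithelial (7), ciliated epithelial (3), endothelial (2), haematopoietic (5), neural (3) and liver (1) markers were detected on 0 arrays. Of 5 striated muscle markers only miR-206 was detected (0.06 ± 0.10, SE, not called). The part of these marker shifts in the miR-34 values was not tested.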

How the data were processed

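Per the file headers, the authors read 1-colour Cy3 arrays with Agilent Feature Extraction 10.7.3.1 (10.7 per the submitters' processing notes). The deposited processed intensity was background-subtracted and spatially detrended, and was not scaled between arrays. The series value table held the same intensity values (largest difference 0). A further deposited table, of 54 miRNAs the authors selected, held scores that look like rounded, normalized intensity, by a method not stated in its header. It named 0 miR-34 miRNAs and was not used.

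Control spots and spots with an outlier flag were left out, which kept 761 of 800 family spots over 8 arrays, and 0 spots were saturated. Detection of a probe required that a share above 0.5 of its remaining spots be flagged well above background. Intensity was divided by the 75th percentile over 189 probes that every array detected, floored at 9.61 and turned to log2 (3.26 at the floor). Spots were averaged per probe. A miRNA's value was the mean of its probes that were detected throughout either group, and 168 miRNAs had one. limma 3.58.1 (R 4.3.3; lmFit, eBayes) compared RapCA with vector, two-sided, with Benjamini-Hochberg adjustment over all 168 and a threshold of 0.05. Single values used the two-sided exact permutation test over the 70 assignments of arrays. The limma fit was tried on simulated per-miRNA values and the permutation test on a made-up example. Scaling, floor, detection filter and probe averaging were not tested in that way. The number of arrays limits the precision, and the p-values refer to the spread of these 8 cultures, which may be technical.

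The miR-34 names were taken by stem. Named besides them were the tested miRNAs of the seed, p53 and marker lists, and the 3 closest profiles per member. The members and lists were chosen with earlier results of these data known. The replicate numbers of the labels were not treated as pairs in the main fit. Same-numbered arrays had correlations of deviations of -0.65, -0.60, -0.55 and 0.63, and only replicate 4 matched its own number best. These values cannot settle whether the cultures were paired. Alternatives covered scaling, background correction, floor, filters, probe summary, covariate, block and single arrays left out.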

Additional observations from a re-analysis of the deposited data

Results flagged for a closer look

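RapCA replicate 1 stood apart from the other RapCA arrays before scaling. Its gap to the nearest RapCA array, divided by the range of the 4, was 0.906 for the summed signal of all miRNAs, 0.928 for miR-34a, 0.890 for miR-34b-5p and 0.904 for miR-34c, each above Dixon's 95% limit for 4 values. Chance alone passes that limit in about 5% of groups, and the 4 flags come from 1 array. No scaled level and no within-array ratio of the family passed it (0 of 12 groups). Without RapCA replicate 1 the scaled log2 differences were -0.22 for miR-34a, 0.20 for miR-34b-5p and -0.24 for miR-34c, and with it as the only RapCA array they were -0.14, 0.77 and 0.12.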

How the results depend on the processing

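The log2 difference of miR-34a had the same direction and call in 24 of 31 alternatives, miR-34b-5p in 25 and miR-34c in 20. In order miR-34a, miR-34b-5p, miR-34c, the differences were -0.64, -0.10 and -0.59 with the percentile over all probes, -1.30, -0.76 and -1.22 with no scaling, and -1.29, -0.75 and -1.21 with spike-in scaling. In these 3 settings miR-34a and miR-34c were called and miR-34b-5p turned, where 103, 113 and 111 of the 168 were lowered. Cyclic loess gave 0.054 and 0.17 for miR-34a and miR-34c on all probes, and 0.079, 0.59 (called) and 0.049 for all 3 on detected probes. Background correction by normexp on the median signal gave miR-34b-5p 0.48 (called) with an offset of 50, and miR-34c 0.29 with it and 0.041 without. Total signal as a covariate gave miR-34b-5p 0.99 (called, where 35 of the 168 were raised) and miR-34c 0.085. RapCA 1 as the only RapCA array gave miR-34c 0.12. The dimmer probe alone called miR-34a (-0.36) and miR-34c (-0.29). Leaving out 1 array at a time gave -0.34 to -0.032 for miR-34a, 0.085 to 0.60 for miR-34b-5p and -0.24 to 0.065 for miR-34c. The causes were not tested.

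Of the ratios, miR-34a over miR-34b-5p passed with normexp at -0.69 (offset 50) and -0.60, and miR-34a over miR-34c at -0.50 and -0.26, while miR-34b-5p over miR-34c was 0.19 and 0.34 and did not pass. Leaving out 1 array gave -0.66 to -0.42 for miR-34a over miR-34b-5p, -0.10 to 0.023 for miR-34a over miR-34c, and 0.32 to 0.61 for miR-34b-5p over miR-34c.

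Of the 168 miRNAs, 44 were raised and 84 lowered. The raised count was 28 with the percentile over all probes, 10 with no scaling, 9 with spike-ins, 3 with cyclic loess on all probes and 76 with normexp at offset 50. The lowered count was 2 with that loess, 20 with normexp at offset 50 and 54 with normexp without offset. Leaving out 1 array gave 39 to 49 raised and 61 to 85 lowered.

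With the replicate number as a block, no miR-34 call changed (limma adjusted p = 0.140, 0.337 and 0.240), and 41 miRNAs were raised and 77 lowered. Sign flips over the pairs of equal number gave the 3 ratios exact p of 0.25, 0.625 and 0.125, and 4 pairs cannot go below 0.125. The planned normexp on mean signal was not run, since the files hold the median signal. All added alternatives (normexp on the median signal, loess on detected probes, single probes, RapCA 1 alone, the software's gene totals, and the p53 and marker lists under each scaling) were chosen after seeing the data.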
